A study of Mus musculus with 8 samples.

Results

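Microvilli are the finger-like protrusions of the apical surface of absorptive intestinal cells, and 10 genes that build and connect them were examined in crypt organoids from WT and MG53-TG mice. The 10 genes were listed by name, from their known roles, and their values were taken from the deposited rows that carry their Ensembl identifiers. All 10 had a value, out of 13355 genes with a value, and all 10 were among the 10400 genes tested. Crypt organoids are epithelial cultures grown from isolated small intestinal crypts, here in Matrigel and IntestiCult medium. RNA sequencing was performed on 4 samples from wild-type littermates (genotype wt) and 4 samples from MG53-TG mice (genotype mg53-tg), which overexpress MG53 throughout the body. One passage of the study's text gives other genotypes for crypt organoids, with an Lgr5 reporter allele in both arms, whereas the sample labels give wt and mg53-tg. The age of the mice is not given in the labels, nor is whether the 4 samples of a group came from separate animals or cultures. The p-values therefore measure the spread between these samples, which may be technical.

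Each microvillus holds a core of parallel actin filaments, bundled by villin, espin and plastin and capped and bundled at the tip by EPS8. Ezrin and myosin-1a tie this core to the overlying membrane. Thread-like links between the tips of neighbouring microvilli are formed by the cadherin-related proteins CDHR2 and CDHR5, which are held inside the cell by the scaffold harmonin (Ush1c) and the motor myosin-7b in the intermicrovillar adhesion complex. Together these proteins give the brush border of the enterocyte its dense and even packing.

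Values are given in FPKM, that is, fragments scaled to transcript length and to the mapped total, so that levels can be compared between genes of different length. The read depth is unknown. Over all transcription starts the summed FPKM ranged from 269837 to 273797 in WT and from 269094 to 284330 in MG53-TG. Trim72, which encodes MG53, was without an entry in WT. In MG53-TG it was at 16.4, 27.4, 31.9 and 36.5 FPKM. In the comparison of all genes, made with limma on log2(FPKM + 1) and called at an adjusted p of at most 0.05, 15.5% of genes were higher and 29.2% lower in MG53-TG, 44.7% in all, and the median log2 fold change was -0.17. When the samples were scaled by the median of their gene ratios this median was -0.0073, and 2118 genes were higher and 2120 lower, against 1617 higher and 3036 lower in the FPKM as deposited.

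Upstream sequences are shown for 4 genes that rose and for Ezr, which did not pass the test, since the starts used in these samples were measured as well. The set of RefSeq promoters used, on GRCm38.p6, held an entry for 8 of the 10 genes. It held none for Eps8 and Myo7b. Each window is the 250 bases before a RefSeq start, written in the direction of the gene. Capitals mark matches to the motifs searched on both strands, in which overlapping matches run together. The letters searched for nuclear receptors of the HNF4 family were CAAAGTNCA. Those for the intestinal CDX factors were TTTATNG. The motif of zinc finger factors of the GATA family was searched as AGATAA. For HNF1 factors a single arm of their palindrome was searched, as GTTAAT. The motif of KLF and related factors was CCNCNCCC, and the core promoter box at which the basal machinery binds was searched as TATAAA. 
Vil1, chr1:74409134-74409383, plus strand: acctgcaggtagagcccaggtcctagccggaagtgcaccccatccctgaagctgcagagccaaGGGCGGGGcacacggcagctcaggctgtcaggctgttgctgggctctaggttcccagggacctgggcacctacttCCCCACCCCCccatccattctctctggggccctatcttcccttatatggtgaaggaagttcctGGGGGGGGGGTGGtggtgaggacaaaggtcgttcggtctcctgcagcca
Espn, chr4:152128926-152129175, minus strand: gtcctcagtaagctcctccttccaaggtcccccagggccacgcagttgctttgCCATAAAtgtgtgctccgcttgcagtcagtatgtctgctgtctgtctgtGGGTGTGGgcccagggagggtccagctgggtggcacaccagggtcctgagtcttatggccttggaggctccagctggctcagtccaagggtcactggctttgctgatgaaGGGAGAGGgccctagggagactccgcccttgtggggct
Cdhr2, chr13:54701213-54701462, plus strand: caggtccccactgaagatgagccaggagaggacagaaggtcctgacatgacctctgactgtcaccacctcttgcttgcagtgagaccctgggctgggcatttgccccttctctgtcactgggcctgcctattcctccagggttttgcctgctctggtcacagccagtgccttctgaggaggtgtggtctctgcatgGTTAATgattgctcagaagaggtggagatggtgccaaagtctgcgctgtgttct
Cdhr5, chr7:141276787-141277036, minus strand: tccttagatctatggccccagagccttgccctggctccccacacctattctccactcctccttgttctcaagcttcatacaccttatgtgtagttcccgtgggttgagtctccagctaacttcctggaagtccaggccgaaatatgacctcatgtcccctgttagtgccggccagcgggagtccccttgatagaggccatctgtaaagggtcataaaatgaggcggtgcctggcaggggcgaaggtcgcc
Ezr, chr17:6782781-6783030, minus strand: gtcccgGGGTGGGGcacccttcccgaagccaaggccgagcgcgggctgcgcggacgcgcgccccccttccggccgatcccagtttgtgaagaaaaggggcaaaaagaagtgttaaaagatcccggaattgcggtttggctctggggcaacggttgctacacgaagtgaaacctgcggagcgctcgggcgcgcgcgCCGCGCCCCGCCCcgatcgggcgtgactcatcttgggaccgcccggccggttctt

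The start listed for Vil1 in these samples lay 8 bases from the RefSeq start, that of Ezr 4 bases, that of Cdhr2 2 bases, and those of Espn and Cdhr5 exactly on it. The windows of Vil1 and Ezr held matches to the KLF motif only, which was present in 45.9% of 32851 promoters of the same length. The Espn window, which lies within the gene upstream of an internal start, held 1 CDX match at position -197 from the start, a motif found in 9.81% of promoters, and 2 KLF matches. The Cdhr2 window held an HNF1 match at position -54, found in 6.43% of promoters, and the Cdhr5 window held none of these letters. HNF4 (1.19% of promoters), GATA (9.99%) and TATA box (12.4%) matches were absent from all 5 windows. The number of CpG dinucleotides was 32 in the Ezr window and 5, 3, 1 and 7 in those of Vil1, Espn, Cdhr2 and Cdhr5, against a median of 6 over all promoters. In windows not shown it was 10 and 7 for Pls1 and Ush1c, which did not pass the test. It was 11 and 1 for other RefSeq starts of Espn. Myo1a, which rose, had 1 in a window before a start at 0.0035 FPKM in WT and 0.129 FPKM in MG53-TG. The Myo1a start with most of its FPKM, at 15.7 in WT and 57.1 in MG53-TG, lay upstream and had no window here.

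Of the 10 microvillus genes, 5 were higher in MG53-TG than in WT organoids (Espn, Myo1a, Cdhr5, Cdhr2 and Vil1), against 15.5% of all genes tested. Another 2 were lower (Eps8 and Myo7b), against 29.2% of all genes, and 3 did not pass the test (Ush1c, Pls1 and Ezr), so that 7 of 10 were called, against 44.7%. The increases were between 2.10-fold and 4.68-fold in mean FPKM, whereas the lower genes were at 0.693 and 0.719 of their WT means. The median log2 fold change of the 10 genes was 0.82. The groups did not overlap in 8 of the 10 genes, with MG53-TG above WT in 6 and below in 2. Among all genes tested, 44.8% did not overlap, with MG53-TG above WT in 15.7% and below WT in 29.1%.

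**Figure D1:**
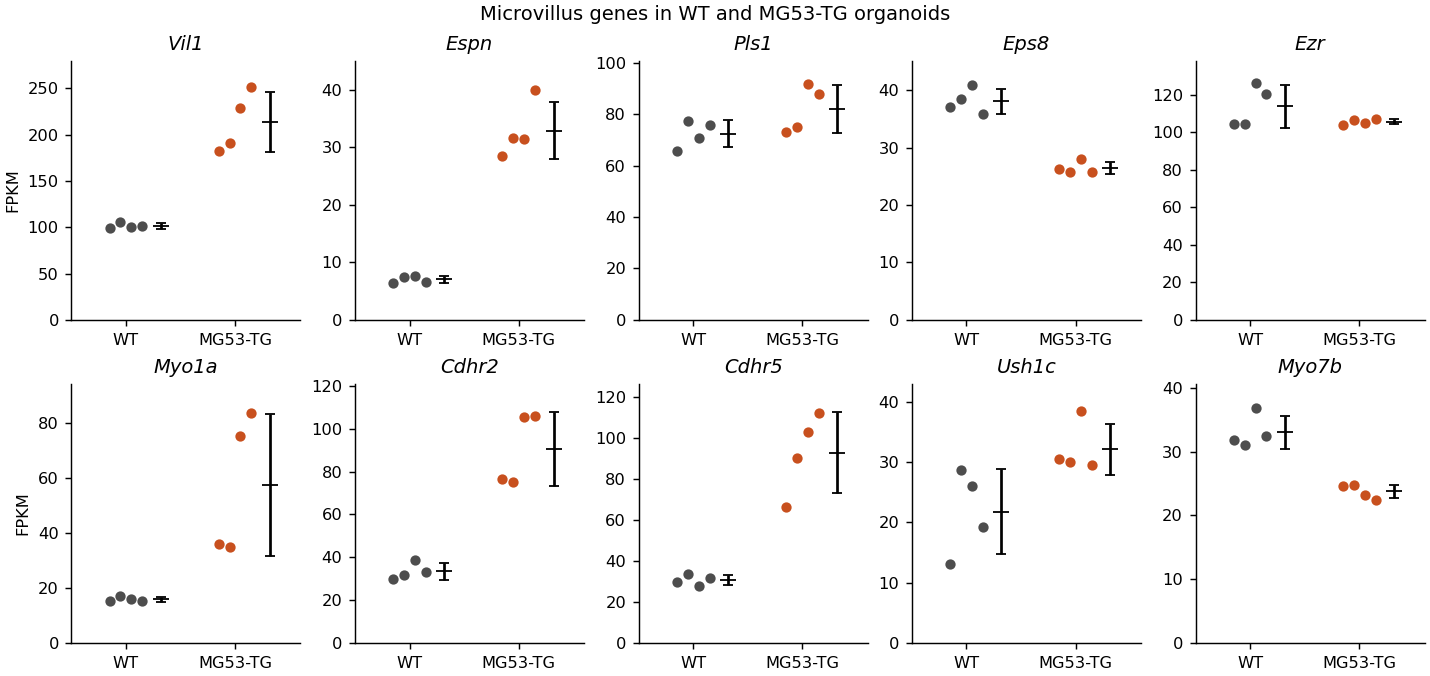
FPKM of the 10 microvillus genes in each of 4 WT (grey) and 4 MG53-TG (orange) samples, drawn in the order of sample number, with the mean and SD of each group beside them as a black bar. The MG53-TG samples lie above all WT samples in the plots of Vil1, Espn, Myo1a, Cdhr2, Cdhr5 and Ush1c, and below them in those of Eps8 and Myo7b.

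Among the genes of the actin core, Vil1 and Espn rose, Pls1 did not pass the test and Eps8 fell. Vil1 (ENSMUSG00000026175, chr1:74409376-74435559, plus strand) encodes villin, which bundles actin filaments and severs them at high calcium. In samples 1 to 4 it was listed at 98.9, 106, 100.3 and 102 FPKM for WT and at 182, 191, 229 and 251 FPKM for MG53-TG. The lowest MG53-TG sample was well above the highest WT sample, and the spread was wider in MG53-TG (213 ± 32.4 FPKM, SD, n = 4) than in WT (102 ± 3.05 FPKM, SD, n = 4). Its log2 fold change was 1.05 (SE 0.11, limma adjusted p = 0.000143).

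Espn (ENSMUSG00000028943, chr4:152120331-152152371, minus strand) encodes espin, an actin bundling protein that lengthens parallel bundles. Its FPKM was 6.48, 7.52, 7.57 and 6.54 in the WT samples and 28.4, 31.6, 31.5 and 40.0 in the MG53-TG samples. It was the lowest of the 10 genes in WT and was raised in all MG53-TG samples by a similar amount, from 7.03 ± 0.599 to 32.9 ± 4.97 FPKM (SD, n = 4 each). The log2 fold change of 2.07 (SE 0.12, limma adjusted p = 6.77e-06) was the largest among the 10 genes.

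Pls1 (ENSMUSG00000049493, chr9:95752642-95845311, minus strand) encodes plastin-1, also called fimbrin, a short crosslinker of actin filaments. It was at 65.9, 77.3, 70.7 and 76.0 FPKM in WT and at 73.1, 75.2, 91.9 and 88.1 FPKM in MG53-TG. MG53-TG samples 1 and 2 lay within the range of the WT samples and samples 3 and 4 above it. With a log2 fold change of 0.17, the 95% confidence interval ran from -0.062 to 0.41 (limma adjusted p = 0.203).

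Eps8 (ENSMUSG00000015766, chr6:137477245-137654876, minus strand) encodes a capping and bundling protein of the microvillus tip. Its FPKM was 37.2, 38.5, 41.0 and 35.9 in WT and 26.3, 25.7, 28.0 and 25.8 in MG53-TG. All MG53-TG samples were below all WT samples, and both groups were narrow. Eps8 fell by 0.51 on the log2 scale (SE 0.08, limma adjusted p = 0.00144).

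Of the 2 genes that tie the core to the membrane, Myo1a rose and Ezr did not pass the test. Myo1a (ENSMUSG00000025401, chr10:127705170-127720940, plus strand) encodes the myosin that bridges the core and the membrane along the length of the microvillus. It was at 15.3, 16.9, 15.9 and 15.2 FPKM in WT, and its MG53-TG values were 35.8, 34.9, 75.2 and 83.6 FPKM. MG53-TG samples 3 and 4 were far above samples 1 and 2, and all were above WT. The mean was 15.8 ± 0.782 FPKM in WT and 57.4 ± 25.7 FPKM in MG53-TG (SD, n = 4 per group). The resulting log2 fold change was 1.68 (SE 0.28, limma adjusted p = 0.00189).

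Ezr (ENSMUSG00000052397, chr17:6738041-6782784, minus strand) encodes ezrin, which links actin filaments to membrane proteins once it is phosphorylated. Its FPKM was 104, 104, 126 and 120.2 in WT and 104, 107, 105 and 107 in MG53-TG. The MG53-TG samples were nearly equal to each other and to the lower WT samples. For Ezr the log2 fold change was -0.10 (95% confidence interval from -0.30 to 0.096, limma adjusted p = 0.372), and its sign depended on the scaling, at 0.089 with median-of-ratios scaling (adjusted p = 0.524) and -0.26 with quantile normalization (adjusted p = 0.0491).

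In the intermicrovillar adhesion complex both cadherin-related genes rose, the motor gene fell and the scaffold gene did not pass the test. Cdhr2 (ENSMUSG00000034918, chr13:54701461-54736662, plus strand) was at 30.1, 31.5, 38.9 and 33.2 FPKM in WT and at 76.4, 75.0, 105 and 106 FPKM in MG53-TG. The lowest MG53-TG sample was far above the highest WT sample. Its log2 fold change was 1.40 (SE 0.15, limma adjusted p = 0.000143), from 33.4 ± 3.88 to 90.7 ± 17.3 FPKM (SD, n = 4 each).

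Cdhr5 (ENSMUSG00000025497, chr7:141269083-141276786, minus strand), whose protein binds CDHR2 on the neighbouring microvillus, was at 29.9, 33.5, 27.9 and 31.8 FPKM in WT and at 66.6, 90.2, 103 and 112 FPKM in MG53-TG. Cdhr5 and Cdhr2 had overlapping levels in each genotype, and MG53-TG sample 1 was the lowest of its group for Cdhr5. The log2 fold change of Cdhr5 was 1.54 (SE 0.16, limma adjusted p = 0.000121), from 30.8 ± 2.38 to 93.0 ± 19.8 FPKM (SD, n = 4 each).

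Ush1c (ENSMUSG00000030838, chr7:46195350-46238503, minus strand) encodes harmonin, the scaffold that binds the tails of both cadherins. It was at 13.1, 28.7, 26.0 and 19.2 FPKM in WT and at 30.6, 30.0, 38.5 and 29.5 FPKM in MG53-TG. The groups did not overlap, but WT sample 2 came close to the MG53-TG range and the WT samples were widely spread. The log2 fold change was 0.59 (95% confidence interval from 0.080 to 1.10, limma adjusted p = 0.0598), with an adjusted p of 0.0291 under median-of-ratios scaling, 0.0415 under quantile normalization and 0.0343 without WT replicate 2.

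Myo7b (ENSMUSG00000024388, chr18:31959234-32036961, minus strand) encodes the myosin that carries the complex towards the tips. Its FPKM was 31.8, 31.1, 36.8 and 32.4 in the WT samples and 24.6, 24.7, 23.2 and 22.5 in the MG53-TG samples. The groups did not overlap, and the difference was in the direction opposite to that of the cadherin genes. Myo7b fell by 0.46 on the log2 scale (SE 0.09, limma adjusted p = 0.00369). The transcription end of Myo7b gave a different picture of MG53-TG samples 1 and 2, which were at 6.14 and 7.32 FPKM there, while samples 3 and 4 were at 25.4 and 27.6 FPKM and the WT samples between 32.8 and 42.3 FPKM. From ends alone the log2 fold change of Myo7b was -1.36 (limma adjusted p = 0.0411).

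The two-sided exact permutation test gave p = 0.0286, the smallest that 4 samples against 4 allow, for each of the 7 genes called and for Ush1c. It gave an exact p of 0.171 for Pls1 and 0.371 for Ezr. The 5 increases and 2 decreases were called in each of the 20 alternative analyses, including the 8 that left out a sample.

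**Figure D2:**
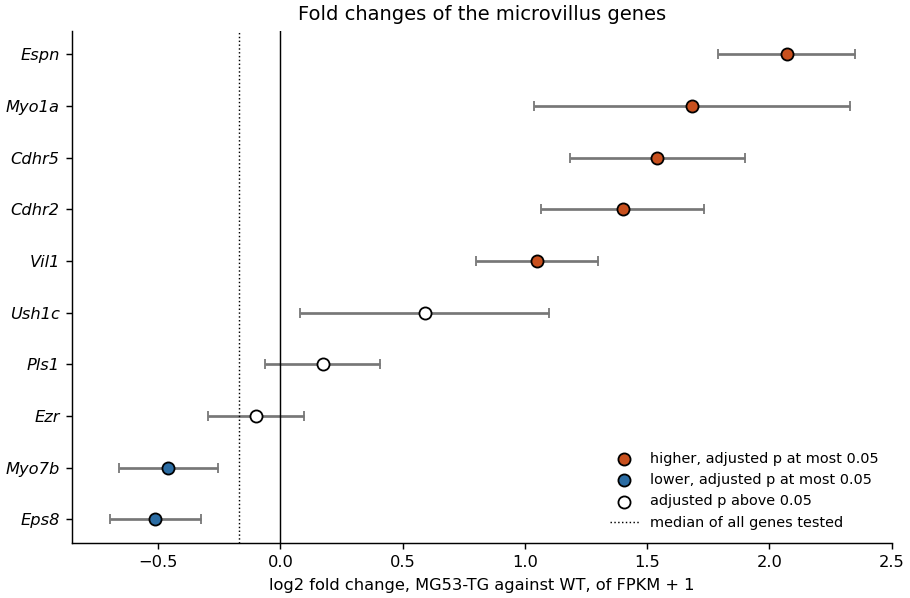
Log2 fold change of FPKM + 1 (MG53-TG against WT) of the 10 microvillus genes, with 95% confidence intervals from limma as horizontal bars, in order of size. Orange points are higher and blue points lower at an adjusted p of at most 0.05, open points are above it, and the dotted line is the median of all genes tested, at -0.17; Espn is at the top with 2.07 and Eps8 at the bottom with -0.51.

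The order of the 10 genes by level differed between the genotypes. In WT, Ezr (114 ± 11.3 FPKM) and Vil1 were followed by Pls1, Eps8, Cdhr2, Myo7b, Cdhr5, Ush1c, Myo1a and Espn. Neighbours in this order were separated beyond the range of the samples only between Vil1 and Pls1, Pls1 and Eps8, and Myo1a and Espn. In MG53-TG, Vil1 came first, followed by Ezr (106 ± 1.38 FPKM), Cdhr5, Cdhr2, Pls1, Myo1a, Espn, Ush1c (32.1 ± 4.26 FPKM), Eps8 and Myo7b. Here Vil1 was separated from Ezr, Ush1c from Eps8, and Eps8 from Myo7b, and the other neighbours overlapped. Myo7b thus went from position 6 of 10 to the last, and Cdhr5 from position 7 to position 3.

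The MG53-TG samples were not alike in these genes. Samples 3 and 4 were both above samples 1 and 2 in Vil1, Pls1, Myo1a, Cdhr2 and Cdhr5, which is 5 of the 10 genes, a pattern found in 19.6% of all genes tested. The split was not particular to the microvillus genes. Apart from Anpep and Mep1b, the 13 brush border hydrolases described below all showed the same pattern. Every stem cell marker and proliferation gene tested had the opposite order, with samples 3 and 4 both under samples 1 and 2. The cause of this split was not tested. The median over the 10 genes of the log2 difference from the WT mean was 0.68 and 0.70 in MG53-TG samples 1 and 2 and 1.01 and 0.89 in samples 3 and 4. In the WT samples it lay between -0.074 and 0.10.

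The genes outside the list whose values followed this median most closely over the 8 samples, measured by the root mean square difference on the log2 scale among 8688 genes, were Pdxk (0.0493), Mief2 (0.0508), Ypel5 (0.0539), Cnksr3 (0.0773) and Pex19 (0.0859). Pdxk, for example, was at 15.8 ± 0.315 FPKM in WT and 28.8 ± 3.78 FPKM in MG53-TG (SD, n = 4 each). This likeness is a description of these samples.

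Transcription starts were compared within the genes that had more than 1 start listed. Espn used a start within the gene, at position 152128925 on chromosome 4, for most of its MG53-TG transcripts. This start was at 2.72, 3.70, 6.07 and 1.71 FPKM in WT and at 27.4, 20.8, 30.5 and 33.2 FPKM in MG53-TG. The larger of 2 events at the next start upstream, at position 152132337, was at 3.69, 3.14, 1.41 and 4.27 FPKM in WT and at 0.893, 10.7, 0.828 and 6.81 FPKM in MG53-TG. The internal start was thus higher in every MG53-TG sample, while the upstream start was lower than all WT samples in MG53-TG samples 1 and 3 and higher than all in samples 2 and 4. The internal start held 49.4 ± 22.6% of Espn start FPKM in WT and 85.4 ± 14.6% in MG53-TG (SD, n = 4 each). The difference of 36.0 percentage points had a two-sided exact permutation p of 0.0571 and a limma adjusted p of 0.357 over 4655 genes with more than 1 start, of which 0.666% were called. Without WT replicate 3 the difference was 46.3 percentage points (exact permutation p = 0.0286, before any adjustment).

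The starts of Eps8 differed in how their values compared between the genotypes. The upstream start, at position 137649285 on chromosome 6, was at 31.4, 33.4, 36.2 and 31.7 FPKM in WT and at 18.2, 21.9, 20.5 and 17.7 FPKM in MG53-TG. The downstream start, at position 137571017, was at 5.61, 4.88, 4.59 and 4.11 FPKM in WT and at 7.90, 3.66, 7.39 and 7.84 FPKM in MG53-TG. The first was lower in every MG53-TG sample, and the second was higher in all MG53-TG samples but sample 2. The share at the upstream start was 86.9 ± 1.83% in WT and 74.1 ± 7.62% in MG53-TG (SD, n = 4 each). This difference of -12.9 percentage points had an exact permutation p of 0.0571 and a limma adjusted p of 0.374 over all genes, and without MG53-TG replicate 2 it was -16.5 percentage points (exact permutation p = 0.0286, before any adjustment).

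**Figure D3:**
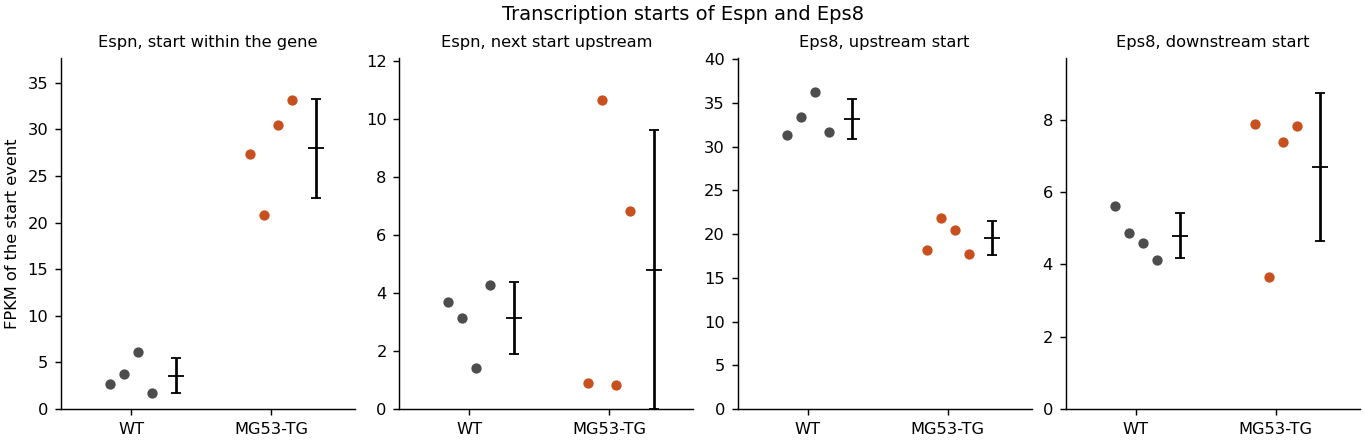
FPKM of single transcription starts of Espn and Eps8 in each of 4 WT (grey) and 4 MG53-TG (orange) samples, with the mean and SD of each group as a black bar and a separate vertical scale in each panel. The internal Espn start averaged 3.55 FPKM in WT and 28.0 FPKM in MG53-TG, and the upstream Eps8 start 33.2 and 19.6 FPKM.

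In each of the other 5 genes compared, a single start held nearly all of the start FPKM in both genotypes. The leading start of Pls1 held 97.6 ± 2.62% in WT and 94.5 ± 2.19% in MG53-TG, that of Cdhr5 96.2 ± 0.999% and 94.5 ± 3.64%, and that of Myo1a 99.3 ± 0.250% and 99.5 ± 0.278% (SD, n = 4 each). The exact permutation p of these differences was 0.143, 0.429 and 0.343, and without MG53-TG replicate 3 the Cdhr5 difference went from -1.70 to -3.48 percentage points (exact permutation p = 0.0286, before any adjustment). For Ush1c the share was 99.95 ± 0.0294% in WT and 95.2 ± 4.27% in MG53-TG, with no overlap between the groups (exact permutation p = 0.0286, limma adjusted p = 0.283). The MG53-TG samples had other Ush1c starts, of 2.30 FPKM in sample 1 and of 2.78 FPKM in sample 2. For Vil1 the share was 96.4 ± 6.98% in WT and 99.9 ± 0.00816% in MG53-TG (exact permutation p = 0.0286, limma adjusted p = 0.681), with a further start of 14.0 FPKM listed in WT sample 3 alone. Neither difference passed over all genes, and the exact permutation p rose to 0.171 for Ush1c when any WT sample was left out and to 0.457 for Vil1 when any MG53-TG sample was. The Vil1 difference of 3.53 percentage points came to 0.044 without WT replicate 3. The leading start of Myo1a lay 1707 bases from the nearest start in the annotation used.

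Shares of alternative exons and retained introns could be measured for 5 features in 4 of the genes, and none was called with limma, in a comparison in which 0.890% of 1123 exons and 0.301% of 332 introns were. None had an exact permutation p under 0.05 either. Each share is the FPKM with the feature, out of the FPKM with it and without it between the same outer boundaries. It is thus not a share of all transcripts of the gene. A 75-base exon of Eps8 before the coding sequence (chr6:137591418-137591492) had a share of 17.6 ± 3.98% in WT and 7.37 ± 7.42% in MG53-TG (exact permutation p = 0.0857, limma adjusted p = 0.442). Its MG53-TG values were 0.309, 17.5, 7.77 and 3.89%, so that sample 2 lay within the WT range, from 12.7 to 22.4%. A coding exon of Cdhr5 of 486 bases (chr7:141271517-141272002) had a share of 67.7 ± 11.7% in WT and 64.4 ± 16.8% in MG53-TG (exact permutation p = 0.857). The share of its 204-base form was 12.1 ± 5.40% and 17.4 ± 11.6% (exact permutation p = 0.457). Each form was set against skipping alone, with the other form left out of the total, so these shares cannot be added or compared with each other. A retained 75-base intron of Espn (chr4:152128333-152128407) had a share of 34.5 ± 8.67% in WT and 53.3 ± 11.1% in MG53-TG (exact permutation p = 0.0571, limma adjusted p = 0.302). A 295-base intron of Ush1c ranged from 0.265 to 58.0% in WT and from 0.233 to 40.9% in MG53-TG (exact permutation p = 0.714). The exact permutation p was 0.0286, before any adjustment, for the Eps8 exon without MG53-TG replicate 2 (-13.6 percentage points), for the 204-base Cdhr5 form without MG53-TG replicate 3 (11.1) and for the Espn intron without MG53-TG replicate 4 (23.4). The sign of 2 differences turned with single samples. For the 486-base Cdhr5 exon it went from -3.33 percentage points to between -7.91 and 4.32, being positive without WT replicate 3 or MG53-TG replicate 3. For the Ush1c intron it went from -5.09 to between -12.9 and 6.74, being positive without WT replicate 3 or MG53-TG replicate 3 or 4.

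Other genes of the same structures were read from lists chosen by function, against the 15.5% of all genes called higher and 29.2% called lower. Both further genes of the adhesion complex rose: Anks4b, whose protein joins harmonin to myosin-7b, from 17.3 ± 0.630 to 33.5 ± 4.43 FPKM (log2 fold change 0.91, limma adjusted p = 0.000299), and Calml4, a light chain of myosin-7b, from 153 ± 6.18 to 225 ± 28.8 FPKM (0.54, adjusted p = 0.00244). Both were higher in all MG53-TG samples than in any WT sample. With Cdhr2 and Cdhr5, 4 of the 6 genes of the complex that were tested were called higher, with Myo7b the only one called lower.

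Of 14 other cytoskeletal genes of the brush border tested, 4 were higher (2 when ends alone were used) and 2 lower (1 with median-of-ratios scaling). Their median log2 fold change was 0.15 and lay between 0.014 and 0.27 over the alternatives, and between 0.095 and 0.23 when a sample was left out. The largest increases were in Pdzk1 (2.58), a scaffold of apical transporters, and Cobl (1.73), an actin nucleator of the microvillus. Actg1, which encodes a cytoplasmic actin, fell from 1165 ± 27.2 to 589 ± 52.0 FPKM (log2 fold change -0.99, limma adjusted p = 2.63e-05). Slk (-0.45), a kinase that phosphorylates ezrin, was also called lower, but not with median-of-ratios scaling (adjusted p = 0.0900) or quantile normalization (adjusted p = 0.0543).

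Of 10 paralogs of these genes tested, 2 were higher and 4 lower, shares near those of all genes (15.5% and 29.2%), and 1 was higher and 1 lower when ends alone were used. They had a median log2 fold change of -0.52, which was -0.038 with median-of-ratios scaling. Pls3, a broadly expressed plastin, was at 5.81 to 6.60 FPKM in WT and at 0.790 FPKM in MG53-TG sample 2, and had no start or end entry in MG53-TG samples 1, 3 and 4, which were set to 0 (log2 fold change -2.63, limma adjusted p = 2.62e-05). When other events of a gene were also admitted, the log2 fold change of Pls3 was -2.07 (limma adjusted p = 1.6e-05). With a pseudocount of 0.1 it was -5.18 (limma adjusted p = 0.00056). Myo7a rose from 4.89 ± 0.440 to 13.4 ± 4.17 FPKM (log2 fold change 1.24, limma adjusted p = 0.00164), whereas its relative Myo7b fell. Eps8l2 rose from 55.8 ± 3.22 to 84.4 ± 5.44 FPKM (0.59, limma adjusted p = 0.000773), whereas Eps8 fell.

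Of 10 genes of the terminal web, the actin and myosin mesh beneath the microvilli, 2 were higher and 4 lower, and 2 were lower with median-of-ratios scaling, when ends alone were used, or without WT replicate 2, 3 or 4 or MG53-TG replicate 2 or 3. Synpo (log2 fold change 1.83) and Lima1 (0.28) were higher, Actn1 (-0.86) and Myh9 (-0.77) lower. The call of Lima1 was lost without WT replicate 1 (limma adjusted p = 0.0628), without MG53-TG replicate 3 (0.0578) or without MG53-TG replicate 4 (0.0543), and that of Actn1 when ends alone were used (0.911). Of 10 genes of apical trafficking, 1 was higher, Myo5b (0.51, limma adjusted p = 0.0309), whose call was lost without WT replicate 1, 2 or 4 or MG53-TG replicate 3 (limma adjusted p from 0.0564 to 0.0777). With median-of-ratios scaling 4 of these genes were higher. Both membrane mucin genes tested, Muc4 and Muc13, were not called. In fits that left out a sample, up to 1 of them was called higher and up to 1 lower.

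Of 12 regulators known to act on brush border genes, 2 were higher and 7 lower. Hnf4g, a nuclear receptor of the differentiated epithelium, rose from 15.5 ± 0.928 to 97.6 ± 28.6 FPKM (log2 fold change 2.54, limma adjusted p = 1.57e-05), and Maf, which had no entry in 3 of 4 WT samples, was at 1.74 to 3.33 FPKM in MG53-TG (adjusted p = 0.00011). Hnf4a, of the same family as Hnf4g, fell from 148 ± 7.88 to 109 ± 8.15 FPKM (-0.44, limma adjusted p = 0.00306). Cdx1, Cdx2 and Klf4 were also called lower. Elf3 (-1.05) and Srf (-1.04), the latter a regulator of actin genes, were among those lower, with the largest decreases on the log2(FPKM + 1) scale, within the error of others. With median-of-ratios scaling 4 of them were higher and 5 lower. Of 13 brush border hydrolases, the digestive enzymes on the microvillus membrane, 12 were higher, with a median log2 fold change of 2.92, and Enpep (4.32) had the largest. The difference between this median and the 0.82 of the microvillus genes was not tested.

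**Figure D4:**
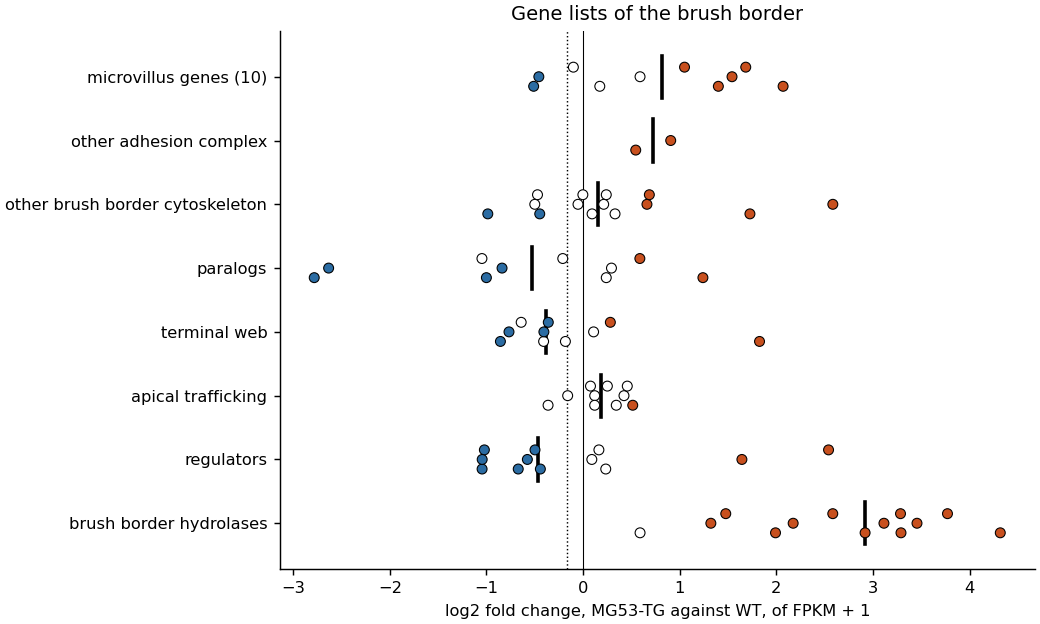
Log2 fold change of FPKM + 1 (MG53-TG against WT) of each gene tested in 8 lists, with a vertical bar at the median of each list and a dotted line at the median of all genes. Orange points are higher and blue points lower at an adjusted p of at most 0.05, open points are above it; the medians of the microvillus genes and of the hydrolases are 0.82 and 2.92.

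Markers of the cell types of the organoid also differed between the genotypes. Their counts stand beside the 15.5% of all genes called higher and 29.2% called lower. In bulk samples, a change in the number of cells of a type and a change in RNA per cell cannot be told apart. All 12 enterocyte markers were higher in MG53-TG, with a summed level of 941 to 1119 FPKM in WT and 11900 to 12986 FPKM in MG53-TG, and 4 of them (Alpi, Anpep, Lct and Sis) are also among the hydrolases. Stem cell markers were lower in 7 of 8 (summed level 548 to 733 FPKM in WT, 63.9 to 323 FPKM in MG53-TG) and proliferation genes in 7 of 8 (485 to 529 against 133 to 364 FPKM). Without MG53-TG replicate 3, 4 of the 8 stem cell markers were called lower, and without any 1 WT sample or MG53-TG replicate 3, 4 of the 8 proliferation genes were. Goblet markers were lower in 5 of 7 (686 to 778 against 184 to 506 FPKM) and Paneth markers in 6 of 6 (1224 to 1640 against 262 to 460 FPKM), while 4 of 8 enteroendocrine markers were higher (261 to 313 against 365 to 523 FPKM). The goblet marker Zg16 went up without a call, from 9.18 ± 2.67 to 33.7 ± 28.0 FPKM (limma adjusted p = 0.118). For crypt organoids, given there as MG53;Lgr5 and Lgr5, the study reports lower stem cell and absorptive markers and higher secretory markers. By flow cytometry the study also reports fewer Lgr5+ and more Atoh1+ cells in MG53;Lgr5 organoids. The enterocyte, goblet and Paneth counts here ran the other way from the study's markers, while that of stem cell markers did not. Of the enteroendocrine markers, 4 were higher and 4 were not called. The marker lists here were chosen apart from those of the study, which used t tests, so this is not a like comparison. The part of these cell types in the changes of the microvillus genes was not tested.

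Tuft cells, which carry long microvilli of their own, were at the limit of what was listed: their 6 listed markers summed to 0.451 to 1.73 FPKM in WT and 0 to 1.09 FPKM in MG53-TG, with no entry for Gfi1b in WT and none for Dclk1 in any sample. Mesenchymal markers summed to 1.80 to 3.24 FPKM in WT and 1.31 to 5.58 FPKM in MG53-TG, and Vim, at 1.80 to 3.24 FPKM in WT and 0.945 to 2.45 FPKM in MG53-TG, did not pass the test. Col1a2 and Col3a1 had no entry in WT or in MG53-TG sample 1 and were at 0.739 to 2.07 FPKM and 0.904 to 1.62 FPKM in MG53-TG samples 2 to 4. Both were called higher (limma adjusted p = 0.00378 and 0.000663) in a fit that left out MG53-TG sample 1. With every missing entry set to 0 their means were under the filter and they were not tested. Immune markers summed to 3.81 to 9.17 FPKM in WT and 0.469 to 1.28 FPKM in MG53-TG. Nearly all of this was Cd68, which was lower, and Ptprc, the gene of the leukocyte antigen CD45, had no entry in WT. The part of these cell types in the values of the microvillus genes was not tested.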

How the data were processed

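RNA sequencing data of 4 WT and 4 MG53-TG organoid samples were used. Per the labels, the authors used Cutadapt 1.9.1, HISAT2 2.0.1 (build mm10), HTSeq 0.6.1 and DESeq2. The authors deposited FPKM per transcript event (start, end, exon or intron) and sample. The tool that made these tables is not given in the sources used here. The value of a gene was its summed start FPKM, or its summed end FPKM where that averaged higher. Start and end events on the other strand, or with boundaries only of another gene in GENCODE, were left out. Of 48647 such events, 87.3% matched the named gene. A sample without a start or end entry was set to missing if the median of the rest of the group reached 0.5 FPKM, and to 0 otherwise. The smallest FPKM was 1e-06, so whole reads could not be recovered and count tests were not run.

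Groups were compared with limma 3.58.1 in R 4.3.3 (lmFit and eBayes with trend) on log2(FPKM + 1). Genes averaging 0.5 FPKM or more entered, p-values were adjusted over all of them by Benjamini-Hochberg, and the threshold was 0.05. Such fold changes understate those of low genes. Single values were compared by two-sided exact permutation over 70 relabellings, and shares also with limma on an arcsine scale over all genes. For shares, an adjustment over the 10 genes alone was planned, and adjustment over all genes was used instead. Shares needed at least 2 FPKM in each sample. Python 3.11.15 with pandas 2.3.3 was used for the rest. In simulated data, 75.0% of 200 changed genes among 10054 were recovered, with 4 unchanged genes called. The changes set there were larger than those of Eps8 and Myo7b and in far fewer genes than were called here. This share is therefore not the recovery to be had in these data.

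The 10 genes and all lists were chosen with earlier results of these data known. Genes named were the 10 microvillus genes, Trim72, up to 2 increases and 2 decreases with the largest size past the threshold in each list of brush border genes, and the 5 genes outside them with a mean of at least 2 FPKM that were most alike. Values of some genes named by this rule are not reported here. The cell type lists are given by counts and sums. Muc4, Muc13, Vim, Zg16, Anpep, Mep1b, Hnf4a, Cdx1, Cdx2, Klf4 and marker genes at or near 0 were named after their values were seen. Alternatives were a pseudocount of 0.1, no filter, a filter at 2 FPKM, scaling by median of ratios, quantiles, a replicate block, sample weights, other ways to measure a gene and leaving out each sample. The limma test of shares over all genes, and leaving out samples for exon and intron shares, were added after seeing the data.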

Additional observations from a re-analysis of the deposited data

Results flagged for a closer look

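The FPKM of Ush1c in MG53-TG sample 3 was 38.5, apart from the other MG53-TG samples, which lay between 29.5 and 30.6 FPKM. The leading start of Vil1 held 85.9% of its start FPKM in WT sample 3, against 99.9% in each of the other WT samples. The 204-base form of the Cdhr5 exon was at 0.241% in MG53-TG sample 3, against 21.0 to 25.1% in the other MG53-TG samples. These 3 values lay far from the rest of their group by Dixon's criterion, among 44 groups examined, of which chance alone would single out 2.20.

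Starts on the strand opposite to the gene were listed within Pls1 at 0.466 FPKM and within Myo7b at 0.974 FPKM, in MG53-TG sample 4 only, and had no entry in WT. They are a signal outside the values compared and are not part of the values of either gene. With them included, the log2 fold change of Myo7b was -0.44 in place of -0.46.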

How the results depend on the processing

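The direction and call of 8 of the 10 genes held in all alternatives. The log2 fold change lay between 0.87 and 1.24 for Vil1, 1.97 and 2.67 for Espn, 1.47 and 1.88 for Myo1a, 1.32 and 1.59 for Cdhr2, 1.44 and 1.73 for Cdhr5, -0.54 and -0.33 for Eps8, -1.36 and -0.27 for Myo7b, and, without a call, 0.10 and 0.36 for Pls1. Ezr was at 0.089 with median-of-ratios scaling, the reverse of its sign in the FPKM as deposited, and at -0.26 (limma adjusted p = 0.0491) with quantile normalization. Ush1c passed the threshold with median-of-ratios scaling (0.77), quantile normalization (0.69) and the replicate block (0.59, limma adjusted p = 0.0473), and in 1 of 8 fits that left out a sample, whose range was 0.38 to 0.74. The cause of these changes was not tested. Over all genes, fits that left out a sample called 1384 to 1588 genes higher and 2330 to 3328 lower. Samples of the same replicate number gave little sign of pairing: their deviations had correlations of 0.10, -0.024, 0.094 and -0.059. So few values cannot exclude a pairing. The block left 1480 genes higher and 2760 lower. Among list counts, medians, other named genes and shares, 1897 alternative values stayed alike, 93 moved, 29 went above a p of 0.05 and 6 came under it. Those 6 were start, exon or intron shares judged by the unadjusted exact permutation p, as was the first value of the Vil1 and Ush1c shares among the 29. Depth is unknown, so no counting error can be given, and values near 0 FPKM may be failed estimates.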
